A study of Mus musculus with 6 samples.

Results

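Mouse cDNA clones of the FANTOM3 collection that lay inside a spliced gene and were covered at under 10% of the level of that gene are described here, for host genes spanning less than 100 kb. FANTOM3 was a project that sequenced full-length mouse cDNAs, and many of its clones have their own row beside the gene rows in the deposited expression table. The members were chosen by position and by measured levels. A clone was kept when it aligned as a single block, lay wholly inside exactly 1 gene row of its own strand, had a summed count of at least 30 over the 6 libraries, and had a host whose span exceeded its transcript length and whose mean level was at least 1 RPKM (reads per kilobase of row length per 1e6 counts). Of 33353 clone rows in a table of 56826 rows, 11843 met these conditions and are called all pairs below. Of these, 7164 had a mean level under 0.1 of the host mean, and 2623 of them lay in hosts under 100 kb and form the set described. The remaining 4541 lay in hosts of 100 kb or more. The ratio of clone to host level chose the clones, so its size is a description and not a finding. The means and sums behind the choice were taken over all 6 libraries, and the difference between the groups did not enter it. Clones just inside the limit included those in Phrf1 and Zfp59, each at 9.94% of the host, and the clones just outside it were 1 in Cdc42 and 2 in Gjc1, each at 10.0%.

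The libraries were made from brain RNA of adult male C57BL/6 mice, 8 to 9 weeks old. In the 3 libraries of the ischemia/reperfusion group the middle cerebral artery had been blocked with a filament for 1 h and reopened for 6 h, which is a rodent model of ischemic stroke (tMCAO). The 3 sham libraries came from mice that had the same surgery without the filament. Total RNA without ribosomal RNA was sequenced as read pairs, so that RNA without a poly(A) tail and RNA not yet spliced were also recorded. The labels name no brain region or hemisphere. They also do not state that each library is a different animal, and the p-values below therefore cover only the spread among these 6 libraries, part or all of which may be technical.

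Introns are transcribed with the rest of a gene and are normally cut out by the spliceosome, after which the excised lariat is opened by the debranching enzyme Dbr1 and degraded in the nucleus. Reads in introns of total RNA can come from precursor RNA still being spliced, from introns that are kept in the transcript, from excised introns that have not yet been degraded, or from separate transcripts that start inside an intron. The deposited values cannot tell these sources apart. No exon coordinates were used, so intron-like refers to the low ratio to the host and not to a mapped intron.

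The clones had a median length of 2135 bases (185 to 6774) and lay in 1747 hosts with a median span of 51.8 kb. Of the 1744 hosts with a RefSeq biotype, 1722 were protein-coding and 21 were long noncoding RNAs. A single clone was found in 1208 hosts and 2 or more in 539. Among all clones, 403 shared bases with another member, so they share reads and are not independent measurements, and clones of a host also share the host value. The clones lay a median of 15.2 kb from the 5′ end of the host, at a median relative position of 0.39 from its 5′ end (0) to its 3′ end (1), and 60.7% had their centre nearer the 5′ than the 3′ end. That share was 54.2% in the hosts of 100 kb or more and 9.71% among the 2337 exon-like pairs, whose clone was at 50% or more of the host level. The exon-like clones therefore lay mostly in the 3′ part of their genes, and the intron-like clones along the whole gene with more of them near its 5′ end.

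A few of the clones held an annotated transcription start. A RefSeq start window, the 250 bases before an annotated start, lay wholly inside 29 of the clones together with the start itself, and in 21 of them the start belonged to the host. The windows inside the 3 such clones with the smallest p for a change of the ratio are shown because at those clones reads may also come from the first exon of a host transcript. They are printed 5′ to 3′ from RefSeq (GRCm38.p6, minus strand), with the CG dinucleotides in capitals. The Arl14ep window is chr2:106973045-106973294, the Stat5b window chr11:100822571-100822820 and the Vmp1 window chr11:86683524-86683773.
Arl14ep start inside the clone: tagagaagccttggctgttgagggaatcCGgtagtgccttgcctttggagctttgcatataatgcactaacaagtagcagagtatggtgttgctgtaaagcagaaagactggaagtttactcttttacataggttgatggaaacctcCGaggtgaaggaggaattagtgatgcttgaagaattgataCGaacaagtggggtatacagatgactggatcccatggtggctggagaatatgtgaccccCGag
Stat5b start inside the clone: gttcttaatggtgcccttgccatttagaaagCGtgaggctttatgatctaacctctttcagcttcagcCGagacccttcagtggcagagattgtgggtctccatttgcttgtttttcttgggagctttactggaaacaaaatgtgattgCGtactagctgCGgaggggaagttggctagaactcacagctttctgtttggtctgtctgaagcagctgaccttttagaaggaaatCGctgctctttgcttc
Vmp1 start inside the clone: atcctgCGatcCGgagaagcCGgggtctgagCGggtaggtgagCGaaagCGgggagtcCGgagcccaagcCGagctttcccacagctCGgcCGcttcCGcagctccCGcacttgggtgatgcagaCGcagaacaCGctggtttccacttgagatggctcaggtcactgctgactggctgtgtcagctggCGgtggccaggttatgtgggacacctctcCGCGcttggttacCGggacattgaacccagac
The Arl14ep and Stat5b windows held 4 and 5 CG and the Vmp1 window 18. Over all 32851 RefSeq windows of this length the median was 6 CG, and 92.1% held at least 1 (CG reads the same on both strands). In the windows inside the clones the median was 4 (31 windows). The 1788 windows of the 1341 hosts that matched the table had a median of 18, and 77.5% of them held 10 or more, against 37.8% of all windows.

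Start windows of the hosts Dnm1, Pafah1b1 and Ptprs are shown beside these, because their clones had the smallest p-values described below. The Dnm1 and Ptprs windows lie upstream of the host row, and the Pafah1b1 window lies inside its row near the 5′ end, before a RefSeq start. Their positions are chr2:32353330-32353579, chr11:74723859-74724108 and chr17:56476481-56476730, each on the minus strand.
Dnm1 start of the host: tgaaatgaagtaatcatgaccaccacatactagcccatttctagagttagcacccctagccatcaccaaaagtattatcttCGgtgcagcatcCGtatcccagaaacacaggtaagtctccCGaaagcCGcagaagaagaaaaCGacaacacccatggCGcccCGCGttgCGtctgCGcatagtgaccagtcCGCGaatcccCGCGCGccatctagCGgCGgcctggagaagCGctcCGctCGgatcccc
Pafah1b1 start of the host: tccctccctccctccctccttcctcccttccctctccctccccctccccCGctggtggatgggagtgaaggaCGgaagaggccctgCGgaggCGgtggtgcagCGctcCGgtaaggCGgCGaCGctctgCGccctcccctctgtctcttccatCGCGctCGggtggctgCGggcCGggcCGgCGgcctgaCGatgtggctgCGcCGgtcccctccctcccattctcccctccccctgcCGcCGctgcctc
Ptprs start of the host: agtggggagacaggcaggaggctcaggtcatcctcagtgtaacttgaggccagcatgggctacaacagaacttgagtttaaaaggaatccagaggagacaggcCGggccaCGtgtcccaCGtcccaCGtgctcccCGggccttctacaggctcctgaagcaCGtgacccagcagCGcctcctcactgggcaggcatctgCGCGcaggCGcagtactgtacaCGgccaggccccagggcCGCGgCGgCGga
These windows held 20, 22 and 15 CG. The clones of these hosts held no window of their own, so their reads come from the body of the gene and not from the printed bases.

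The level of the intron-like clones relative to their hosts was higher in every ischemia/reperfusion library than in every sham library. The median ratio over the 2623 clones was 2.19%, 2.07% and 2.21% in the sham libraries and 2.96%, 3.08% and 2.87% in the ischemia/reperfusion libraries. The groups did not overlap, and the ischemia/reperfusion libraries lay close together. The means of these medians were 2.16 ± 0.0774% and 2.97 ± 0.104% (SD, n = 3 each), a 1.38-fold difference. As a median over chosen members it carries no test. The clone side of the ratio separated the groups and the host side did not: the median clone level was 0.249, 0.247 and 0.262 RPKM in sham and 0.352, 0.350 and 0.333 RPKM after ischemia/reperfusion, whereas the median host level was 12.3, 12.4 and 12.3 RPKM against 12.9, 12.0 and 12.4 RPKM. Counts in the clones made up 0.264%, 0.272% and 0.272% of the sham library totals and 0.339%, 0.336% and 0.324% of the ischemia/reperfusion totals, so that the clones as a set took a larger share of each library after ischemia/reperfusion. In such bulk samples fewer cells of a type and less RNA per cell cannot be told apart.

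**Figure D1:**
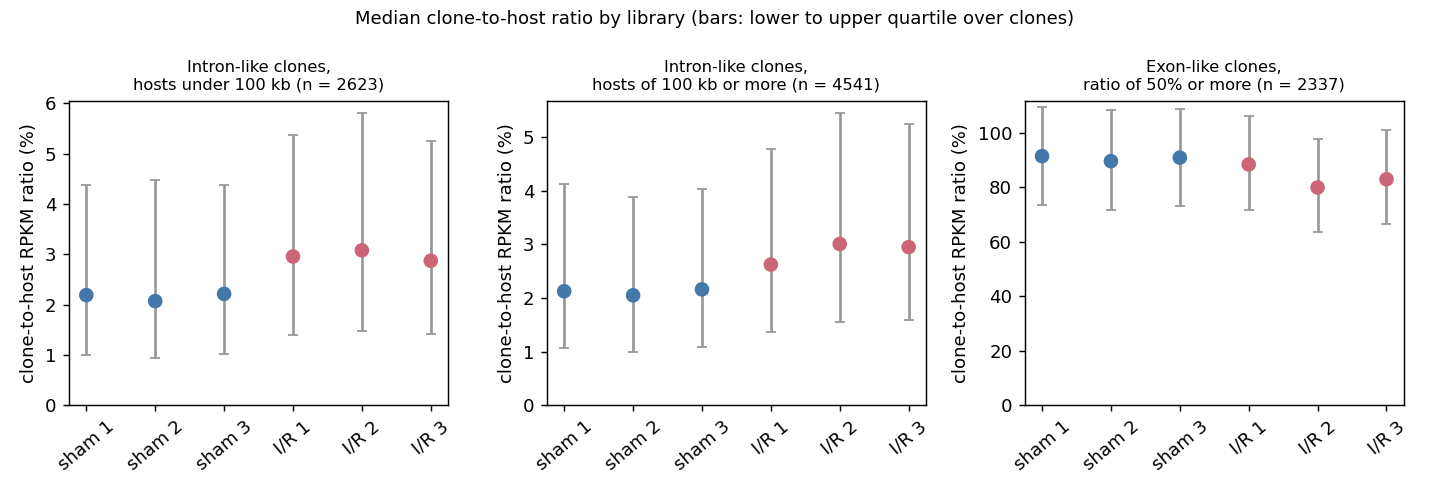
Median clone-to-host RPKM ratio (%) in each library (points, 3 sham in blue and 3 ischemia/reperfusion, I/R, in red), with bars from the lower to the upper quartile over clones, for intron-like clones in hosts under 100 kb, in hosts of 100 kb or more, and for exon-like clones; the 3 panels have different scales. The medians of the first panel lie between 2.07% and 2.21% in sham and between 2.87% and 3.08% in I/R, while those of the exon-like clones are highest in a sham library (91.4%) and lowest in an I/R library (79.9%).

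The same difference was seen in the hosts of 100 kb or more and was not particular to short hosts. There the median ratio was 2.12%, 2.05% and 2.16% in sham and 2.62%, 3.01% and 2.95% after ischemia/reperfusion, a 1.35-fold difference of the means. The exon-like pairs went the other way: their medians were 91.4%, 89.6% and 90.9% in sham and 88.4%, 79.9% and 82.9% after ischemia/reperfusion. In 329 hosts that held both an intron-like and an exon-like clone, the change of the intron-like clone or the median over several was the larger in 289 (87.8%). The median log2 change was 0.41 for the intron-like and −0.10 for the exon-like clones of these hosts, with a median difference of 0.49. Since both kinds of clone in a host are divided by the same host counts, an error in the host level moves them together.

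The change of each ratio between the groups was tested with edgeR on the clone counts, with the host count of the same library as the offset, over all 11843 pairs with Benjamini-Hochberg adjustment. Of the 2623 clones, 25 had a higher ratio after ischemia/reperfusion at an adjusted p under 0.05 (0.953%) and 0 had a lower one, against 0.785% higher and 0.16% lower over all pairs. The share called higher is near the background and is not a result about these clones. With no adjustment, 570 clones were higher (21.7%) and 5 lower at a p under 0.05 (background 15.7% and 5.07%). Groups that did not overlap were found for 673 clones with a higher ratio (25.7%, background 18%) and for 18 with a lower ratio (0.686%, background 6.96%). The fitted log2 change was above 0 for 2200 clones (83.9%, background 66.8%), with a median of 0.39 (1.31-fold) and quartiles of 0.12 and 0.70, against a median of 0.17 over all pairs. All pairs include the members, and clones of a host are not independent, so these shares are descriptions. Centring each library on the median ratio of all pairs gives every library the same median ratio, but does not set the change of the typical pair to 0. It left a median log2 change of 0.11 for the members and −0.11 for all pairs, with 59.9% of the members above 0. That scaling called 44 members higher and 5 lower, and 127 and 1835 over all pairs, so the split into higher and lower depends on it. A second centring, added after seeing the data, left medians of 0.26 for the members and 0.05 for all pairs. limma on the log2 ratio called 0 of the 2623 clones and put 480 higher and 5 lower below an unadjusted p of 0.05, and leaving out 1 library gave from 3 (without sham replicate 1) to 128 calls (without ischemia/reperfusion replicate 1).

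Tested as rows of the whole table without division by the host, the clones gave the same direction and no call. Of 2331 clones that passed the low-count filter, 0 had an adjusted p under 0.05 in edgeR (background 0.00249%), with 415 higher and 4 lower where p was under 0.05 without adjustment (backgrounds 8.73% and 6.9%). Because a filter on low counts can favour clones that are high in 1 group, the fit was repeated without it: over all 2623 clones the median log2 fold change was 0.35 and 79.2% were above 0 (54.5% of all rows), with 436 higher and 7 lower where the unadjusted p was under 0.05 (backgrounds 7.19% and 5.78%). It called 3 clones, in Rab40c, Stip1 and Prrc2b, each higher (background 0.142%). DESeq2 called 18 of the 2331 clones, each higher, and gave no adjusted p for 1068 of them. Its background, 1.8% of 32377 rows, counts both directions together and only rows with an adjusted p, whereas the 2331 include clones without one. It is therefore not a like measure for the clones called higher. Of these 18, 14 were among the 25 clones called by their ratio. The 4 others were in Fam107b, Tpm4, Rbm6 and Myo18a.

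No host row was called. Of 1747 hosts, 0 passed in edgeR, and 88 were higher and 182 lower before adjustment (p under 0.05; backgrounds 8.73% and 6.9%), with a median log2 fold change of −0.06. The lean towards lower hosts depended on the scaling and the filter: upper-quartile factors gave 123 higher and 87 lower (median −0.02), and rows with a mean of at least 1 CPM gave 115 and 116. The clone was higher and its host lower in 1227 pairs (46.8%), both were higher in 850 (32.4%), both lower in 423 (16.1%), and the clone lower with its host higher in 123 (4.69%). In hosts whose own row was lower at an unadjusted p under 0.05 with the TMM factors, the ratio was above sham for 237 of 253 clones, and the clone row itself for 167 of them, with a median clone change of 0.17. In hosts that were higher at that p, the ratio was above sham for 86 of 121 clones and the clone row for 110. Host counts enter the ratio, so a low host value alone raises it, and the clone rows give the part that does not depend on the host. DESeq2 called 11 of the 1747 host rows, 6 higher and 5 lower, a share below its background of 1.8% for both directions together. Among them Meg3, a maternally expressed noncoding RNA, had counts of 29621, 31565 and 31314 in sham and 42466, 54519 and 55793 after ischemia/reperfusion. Its clone fantom3_D930023J15 had a ratio of 2.86%, 1.96% and 2.30% in sham and 2.34%, 2.05% and 2.15% after ischemia/reperfusion, so that clone and host were higher together and their ratio groups overlapped.

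**Figure D2:**
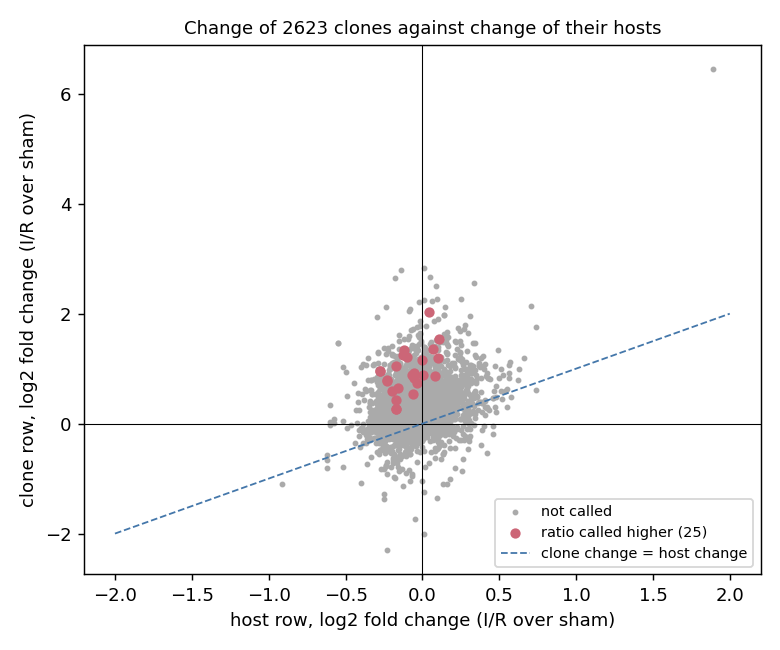
Log2 fold change (I/R over sham) of each of the 2623 clone rows on the y axis against that of its host row on the x axis, from edgeR without a low-count filter for the clones; red points are the 25 clones whose ratio was called higher, and the dashed line marks equal change. Most points lie above the dashed line, with 1227 clones in the upper left quadrant and 123 in the lower right; the single point far up belongs to a clone in Ccl9 with no counts in the sham libraries.

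The fitted change was larger for clones at a lower level of the host. The median log2 change was 0.56 for the 448 clones under 1% of the host, 0.56 from 1% to 2%, 0.37 from 2% to 5% and 0.22 from 5% to 10%. Outside the limit, in hosts of the same span, it was 0.14 from 10% to 20%, 0.06 from 20% to 50% and −0.09 at 50% or more. Clones with fewer reads showed more of it as well, with medians of 0.48, 0.45, 0.40 and 0.30 in 4 bins of about equal size from the lowest to the highest summed count, while the share above 0 was 76.4%, 82.8%, 86.2% and 90.2%. For the 801 clones with a mean of at least 1 CPM (counts per 1e6 counts of the library) the median was 0.30, and 720 were above 0. Without division by the host, the clone rows had median log2 fold changes of 0.42, 0.46, 0.35 and 0.21 in the 4 bins from under 1% to 10%. The host rows had medians of −0.13, −0.08, −0.03 and −0.03 in these bins, so the host side enters the gradient. The bins were cut on the ratio that chose the clones, and the gradient is a description. The ratio and the read number go together, and their parts were not tested separately.

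The median change differed less with the position in the host. In 4 equal bins from the 5′ to the 3′ end of the host the median log2 change was 0.41, 0.42, 0.39 and 0.31, with quartiles that overlapped widely. In hosts of 100 kb or more the same medians were 0.42, 0.38, 0.42 and 0.38. By host span the medians were 0.32 under 25 kb, 0.43 from 25 to 50 kb, 0.40 from 50 to 75 kb and 0.39 from 75 to 100 kb. Of the 25 called clones 16 lay in the bin at the 5′ end, which held 896 of the 2623 clones. These 16 include overlapping clones in Pafah1b1 and in Paip2, which share reads. They also include clones in Hid1, Blcap, Stip1 and Rab14 that begin within 0.121 kb of the 5′ end of the host, where first-exon reads may enter. The share called was 1.79%, 0.288%, 0.650% and 0.719% from the 5′ to the 3′ bin, so that the calls were unevenly placed although the medians were close. No test of this was made. In 370 of the 539 hosts with 2 or more clones each clone had a change above 0, in 149 the signs differed and in 20 none was above 0.

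**Figure D3:**
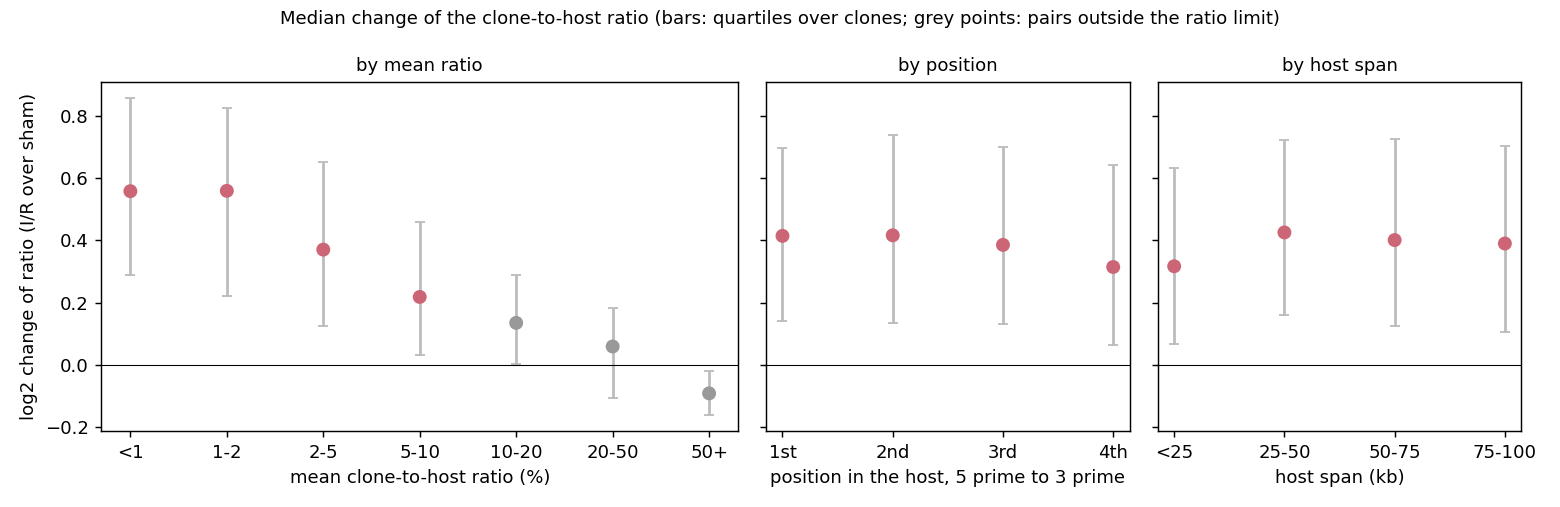
Median log2 change of the clone-to-host ratio (I/R over sham; points, with bars from the lower to the upper quartile over clones) by the mean ratio (%), by position in 4 equal bins from 5′ to 3′, and by host span (kb); red points are the intron-like clones and grey points pairs above the 10% limit in hosts of the same span. The points run from 0.56 under 1% to −0.09 at 50% or more, and stay between 0.31 and 0.43 across position and span.

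The called clones are given with the role of their host, in an order that serves reading alone and was not tested. Dnm1 encodes dynamin 1, the GTPase that pinches synaptic vesicles off the presynaptic membrane. Its clone fantom3_4732456F06 (chr2:32329590-32332613, minus strand, mm10) had a ratio of 1.31%, 1.36% and 1.61% in sham and 2.81%, 2.39% and 2.22% after ischemia/reperfusion. Every ischemia/reperfusion library lay above every sham library, and the clone rose 1.73-fold relative to its host (log2 0.79, SE 0.12, adjusted p 0.00465), with a host change of −0.04. The clone counts behind these ratios were 264, 205 and 275 in sham and 382, 448 and 401 after ischemia/reperfusion. Gprasp1, which sorts internalised G protein-coupled receptors to lysosomes, had a clone (fantom3_9330196N18, chrX:135750505-135754100, plus strand) at 0.856%, 0.831% and 1.05% in sham and 1.28%, 1.70% and 1.80% after ischemia/reperfusion. Those groups did not overlap either, and the log2 change was 0.80 (SE 0.13, adjusted p 0.00726). The clone in Rab40c, a Rab-like GTPase that forms part of a ubiquitin ligase, was at 2.94%, 3.82% and 2.76% in sham and 5.45%, 10.1% and 6.66% after ischemia/reperfusion (log2 1.21, SE 0.22, adjusted p 0.0152). Its highest value, in ischemia/reperfusion replicate 2, coincided with the lowest host count of the 6 libraries, 1257 against 1591 to 2021 in the others. Rab14, a Rab GTPase of endosomes, held 2 called clones that share no bases, with the smallest changes among the 25 (1.35-fold each). Atp6v0d1 (a subunit of the vesicular proton pump), Spire1 (an actin nucleator of vesicle transport) and Hid1 (a factor of dense-core vesicle formation) held 1 called clone each.

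Pafah1b1 encodes Lis1, a dynein regulator that neurons need for migration. Its clone fantom3_B230313J23 (chr11:74710535-74713962, minus strand) was at 0.496%, 0.396% and 0.480% in sham and 1.02%, 1.08% and 1.17% after ischemia/reperfusion. The counts behind them were 78, 60 and 71 against 137, 135 and 134, and the groups lay well apart. The log2 change was 1.25 (SE 0.19, adjusted p 0.00550), and the host row was lower by less (log2 −0.28, adjusted p 0.207). A further clone, fantom3_D230035N05, covers nearly the same bases and repeats this value. These 2 clones alone among the 25 kept an adjusted p under 0.05 when any 1 library was left out. Ptprs encodes a receptor tyrosine phosphatase that acts at axons and synapses. Its clone fantom3_9630010G10 (chr17:56430557-56432477, minus strand) was at 3.24%, 3.11% and 2.86% in sham and 4.66%, 5.78% and 6.27% after ischemia/reperfusion. The groups did not overlap, and the log2 change was 0.86 (SE 0.14, adjusted p 0.00589) with a host change of 0.01. Gnb1 (a G protein beta subunit) and Tpm3 (a tropomyosin) held 1 called clone each.

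Stip1 encodes the cochaperone that links Hsp70 and Hsp90. Its clone fantom3_B430214C18 (chr19:7037104-7039966, minus strand) was at 0.474%, 0.393% and 0.426% in sham and 1.16%, 0.750% and 1.58% after ischemia/reperfusion, with ischemia/reperfusion replicate 2 nearest to sham. Its log2 change was 1.43 (SE 0.27, adjusted p 0.0198). The clone begins 0.06 kb from the 5′ end of the host row, so reads of a first exon may be included. Trim35, a member of the tripartite-motif family of ubiquitin ligases, had a clone (fantom3_C530050H12, chr14:66297925-66300314, plus strand) at 3.47%, 4.22% and 3.40% in sham and 5.23%, 6.66% and 5.17% after ischemia/reperfusion (log2 0.62, SE 0.12, adjusted p 0.0224). The clone in Paip2, a repressor of translation that binds the poly(A)-binding protein (fantom3_A230062I15, chr18:35600901-35603077, plus strand), was at 1.02%, 1.02% and 1.25% in sham and 2.45%, 2.20% and 1.99% after ischemia/reperfusion (log2 1.02, SE 0.20, adjusted p 0.0268). A further Paip2 clone overlaps it. The largest change among the 25 was that of the Prrc2b clone fantom3_E030004H24, 3.95-fold (log2 1.98, SE 0.41, adjusted p 0.0298), which rests on 7, 13 and 12 counts in sham and 40, 52 and 40 after ischemia/reperfusion. Hspa9 (the mitochondrial Hsp70), Timm23 (a subunit of the mitochondrial import channel), Gtf2i and Adnp (transcription regulators), Mgat5b (a brain glycosyltransferase), Blcap and Cdip1 held the others. The 25 clones represent 22 hosts and 23 separate loci, their fold changes ran from 1.35 to 3.95 with a median of 2.02, and none of their groups overlapped. Of the 25, 19 had a host row below sham, with an unadjusted host p under 0.05 for 2, both in Pafah1b1.

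**Figure D4:**
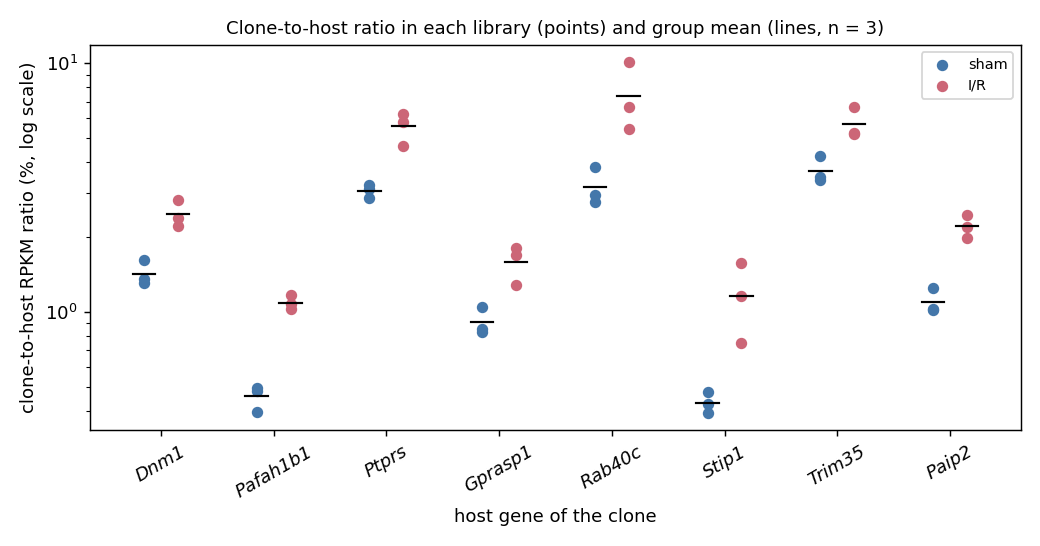
Clone-to-host RPKM ratio (%, log scale) in each library for the 8 named clones called higher, labelled by host gene; points are libraries (sham blue, I/R red) and lines the means of 3 libraries. The 8 were named among clones with groups apart, so every I/R point lies above every sham point by the choice. The values run from 0.393% to 0.474% against 0.750% to 1.58% in Stip1 to 2.76% to 3.82% against 5.45% to 10.1% in Rab40c.

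edgeR on the uncentred ratio called no clone lower, whereas centring on the median of all pairs called 5 lower. The 5 with a lower uncentred ratio and an unadjusted p under 0.05 were in Chd8, Cenpo, Agps, Ankhd1 and AK129341 and had few reads. The clone fantom3_D630045B11 in Chd8, a chromatin remodeler, had 10, 19 and 8 counts in sham and 7, 2 and 0 after ischemia/reperfusion (log2 −2.02, SE 0.81, adjusted p 0.175). The clone in Cenpo, a kinetochore protein, had 4, 11 and 9 against 2, 3 and 2 counts (adjusted p 0.231). Among deeper clones with groups apart in the lower direction, that in Scaf8, an RNA polymerase II binding protein, was at 7.50%, 8.49% and 9.40% in sham and 7.25%, 7.25% and 4.98% after ischemia/reperfusion (log2 −0.38, SE 0.20, adjusted p 0.280). Centred on the median of all pairs it was called lower (log2 −0.66, adjusted p 0.0242). The lowest sham value lay just above the highest ischemia/reperfusion values there. Further clones with groups apart in this direction and no call on the uncentred ratio lay in Rasa1 (log2 −0.76), Diras2 (−1.23), Phf12 (−0.63) and Hnrnpr (−0.47).

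None of the 6 clones with the most reads was called by edgeR on the uncentred ratio. The clone in Skp1a, a core subunit of SCF ubiquitin ligases, had the highest mean level, 46.7 CPM, and a ratio of 9.26%, 9.11% and 9.22% in sham and 9.95%, 10.4% and 10.6% after ischemia/reperfusion. Its groups did not overlap, but its adjusted p was 0.0950 (log2 0.17, SE 0.05). The Skp1a clone row itself was lower after ischemia/reperfusion (log2 −0.21), and its host row was lower by more (log2 −0.37, edgeR adjusted p 0.184). This clone begins 0.043 kb from the 5′ end of the host row, so reads of a first exon may be included. For the clones in Ywhaq (a 14-3-3 protein), Atp6v1b2 (a subunit of the vesicular proton pump), Atp2a2 (the calcium pump of the endoplasmic reticulum) and Tsnax (translin-associated factor X) the groups overlapped, with log2 changes from 0.00 to 0.12. The clone in Enpp2, which encodes autotaxin, had 1037, 1076 and 1232 counts in sham and 757, 540 and 1756 after ischemia/reperfusion, a wide spread. Its ratio stayed at 8.42%, 8.34% and 8.09% against 7.38%, 8.01% and 7.66% (log2 −0.11, SE 0.06, adjusted p 0.322), slightly lower in each ischemia/reperfusion library. Centred on the median of all pairs, its log2 change was −0.40 (adjusted p 0.00237), and with the second centring −0.24 (adjusted p 0.0443), so this clone was called lower there. The summed level of 4 choroid plexus markers was also lowest in ischemia/reperfusion replicate 2 and highest in replicate 3, at 605, 542 and 757 CPM in sham and 418, 17.4 and 1196 CPM after ischemia/reperfusion, and its part in the Enpp2 counts was not tested.

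At the other end of the range, the smallest ratio was that of the clone in Pcp4, a calmodulin regulator, at 0.0391% of a host with 322 RPKM. Its counts were 4, 4 and 16 in sham and 24, 17 and 20 after ischemia/reperfusion, which did not overlap and did not pass the test (log2 1.38, SE 0.54, adjusted p 0.165). The clone in Clstn1, a synaptic calsyntenin, was next at 0.0733%, with 27, 17 and 30 against 21, 26 and 25 counts and a log2 change of 0.07. In 61 clones at least 1 library had no counts. In the clone fantom3_A530060K20 of Ccl9, a chemokine gene, the counts were 0, 0 and 0 in sham and 20, 0 and 13 after ischemia/reperfusion, while the host had 80, 159 and 37 against 757, 86 and 208 counts. The groups overlapped at 0, its adjusted p was 0.150, and no fold is given. It was singled out after its values were seen.

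Hosts with many clones allowed the change to be followed along a gene. Rtn3, which encodes a reticulon of the endoplasmic reticulum, held 10 clones, each with a log2 change above 0 (0.15 to 0.94, median 0.41). Over these clones the median ratio was 0.854%, 0.751% and 0.822% in sham and 1.14%, 1.17% and 1.07% after ischemia/reperfusion. The groups did not overlap for 7 of the 10, and 6 had an unadjusted p under 0.05, but none was called. Over all members 25.7% were higher with groups apart and 21.7% higher at that p, and over all pairs 18% and 15.7%. The largest change lay near the 5′ end, in clone fantom3_6330597N02, at 0.563%, 0.424% and 0.382% against 0.912%, 1.02% and 0.699% (log2 0.94, SE 0.27, adjusted p 0.0874). The smallest was that of fantom3_D130083M04, at 1.49%, 1.59% and 2.16% against 1.93%, 1.94% and 1.95%, where the third sham library lay above each of the others. Several Rtn3 clones overlap and all share the host counts, so the 10 are not separate measurements and their counts are descriptions.

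Satb1, a chromatin organiser of neurons and T cells, held 9 clones and showed no such difference. Only 3 of its 9 clones had a log2 change above 0, the median was −0.14, and 0 had an unadjusted p under 0.05. The median ratio over these clones was 1.57%, 1.18% and 2.49% in sham and 1.68%, 1.27% and 1.95% after ischemia/reperfusion, with wholly overlapping groups. Ccnd3, which encodes cyclin D3, held 8 clones with a median log2 change of 1.14, of which 5 had an unadjusted p under 0.05 (21.7% of all members were higher at that p). Here 1 library set the value: the median ratio was 1.55%, 0.765% and 1.30% in sham and 1.70%, 5.62% and 1.15% after ischemia/reperfusion. Ischemia/reperfusion replicate 2 was high in 7 of the 8 clones, 6 of which lie in the same stretch of the gene, and replicates 1 and 3 were near sham in most of them.

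**Figure D5:**
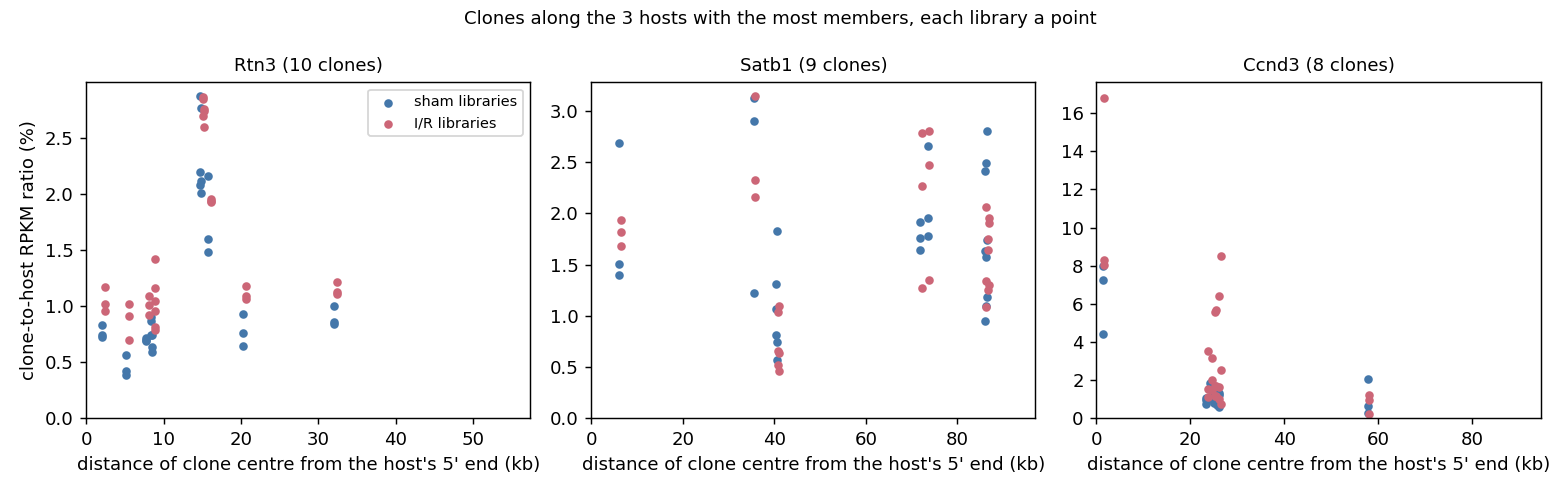
Clone-to-host RPKM ratio (%) in each library (sham blue, I/R red) against the distance of the clone centre from the 5′ end of the host (kb) for the clones of Rtn3, Satb1 and Ccnd3; sham and I/R points are offset sideways slightly and the y axes differ. In Rtn3 most I/R points lie above the sham points of the same clone, and in Satb1 they are mixed. In Ccnd3 1 I/R library is the highest in most clones, up to 16.8%. The Ccnd3 clone nearest the 5′ end lies at 4.40% to 8.28% in the other libraries.

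Clones with an annotated start of the host inside were similar to the others. Of the 21, 18 had a log2 change above 0, the median was 0.41, 4 had an unadjusted p under 0.05 and 0 were called. Over all members 83.9% were above 0 and 21.7% were higher at that p. Clones that begin near the 5′ end of the host without holding the whole window are not among the 21. The called clones in Hid1, Blcap and Stip1 and 1 in Rab14 began 0.013, 0.027, 0.06 and 0.121 kb from that end. Reads of a first exon may enter these as well. In Arl14ep, an effector of an ARF-like GTPase, clone fantom3_6820415E04 had a ratio of 4.73%, 5.26% and 6.26% in sham and 9.23%, 7.71% and 10.4% after ischemia/reperfusion. The groups did not overlap (log2 0.75, SE 0.20, adjusted p 0.0701). In Stat5b, a transcription factor of cytokine signalling, clone fantom3_A130035C01 had 1, 10 and 14 counts in sham and 30, 30 and 39 after ischemia/reperfusion, again without overlap (log2 1.88, SE 0.54, adjusted p 0.0872). In Vmp1, a membrane protein of autophagosome formation, clone fantom3_3110098I04 covers the first bases of the gene and was at 4.57%, 2.89% and 6.29% in sham and 7.80%, 5.26% and 11.5% after ischemia/reperfusion, where the groups overlapped (adjusted p 0.173). The windows printed above were chosen by the p of their clones, and 0 of the 21 were called. No relation of CG content to the change can therefore be read from them.

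A single clone held an annotated microRNA hairpin, Mir7227, and its mature sequences are shown as the only annotated hairpin inside any of the clones. They are given as RNA with the seed, bases 2 to 8, in capitals (RefSeq, GRCm38.p6, chr4:133717050-133717108, minus strand).
mmu-miR-7227-5p: uCUGAUGAcuuuuucauuga
mmu-miR-7227-3p: uCUGAAAAgggucaucggcaga
The clone, fantom3_A430083J16, lies in Arid1a, a subunit of SWI/SNF chromatin remodelers. Its ratio was 3.57%, 4.22% and 3.40% in sham and 5.44%, 5.77% and 2.85% after ischemia/reperfusion, with ischemia/reperfusion replicate 3 below each sham library (log2 0.33, SE 0.27, adjusted p 0.510). Libraries of this kind do not measure mature microRNAs.

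Genes that splice, export or degrade introns were examined as the machinery that sets the level of intronic RNA. Of 39 such genes 38 were found and tested, 0 were called (edgeR, adjusted p under 0.05), 4 were higher and 3 lower before adjustment (p under 0.05), and the median log2 fold change was −0.01. Against backgrounds of 8.73% and 6.9% these counts are no result about the list, and upper-quartile factors gave 5 higher and 1 lower. Nxf1, the main mRNA export receptor, was at 40.6, 43.3 and 39.9 CPM in sham and 50.5, 50.5 and 54.3 CPM after ischemia/reperfusion (log2 0.27, adjusted p 0.231), so its groups did not overlap. Clk1 and Clk4, kinases of splicing factors whose own transcripts are known to keep introns, and Zfc3h1, a protein that connects poly(A) RNA to the nuclear exosome, were the other 3. The lower genes were C1d and Exosc2 of the nuclear exosome and Cwf19l2, a protein of intron turnover. C1d was at 24.6, 29.2 and 25.2 CPM in sham and 21.8, 22.1 and 20.5 CPM after ischemia/reperfusion (log2 −0.35, adjusted p 0.208), again without overlap. Dbr1, the debranching enzyme, was at 14.9, 18.1 and 14.6 CPM against 17.9, 13.1 and 12.9 CPM, with overlapping groups. The genes of this list themselves held 6 of the intron-like clones in 5 hosts, all 6 with a change above 0 (median 0.61) and none with an unadjusted p under 0.05. In Nrde2, a nuclear protein that restrains the exosome, 2 clones over nearly the same bases had counts of 53, 33 and 61 in sham and 59, 64 and 57 after ischemia/reperfusion. Splicing factors and Clk kinases held 25 clones in 9 hosts, of which 20 had a change above 0 (median 0.24), 7 were higher and 0 lower before adjustment, and 0 were called. Beside the 83.9% of all members above 0 and their median of 0.39, these counts are no result about the list. The deepest, in Rbm39, a splicing factor, was at 7.35%, 5.66% and 7.25% in sham and 7.04%, 7.02% and 6.91% after ischemia/reperfusion, which did not separate the groups.

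Clones inside marker genes of single cell types were few. Slc1a3, which encodes the astrocyte glutamate transporter GLAST, held 6 clones, all with a change above 0 and an unadjusted p under 0.05 and none called (median 0.85). At that p 21.7% of all members and 15.7% of all pairs were higher. The 6 clones share the host counts, and fantom3_E130014H10 shares bases with another member, so they are not separate measurements. The groups overlapped in 2 Slc1a3 clones with more reads. In fantom3_B430204K11 the ratio was 0.851%, 0.867% and 0.932% in sham and 0.843%, 1.57% and 1.30% after ischemia/reperfusion. In fantom3_D030016F20 it was 0.407%, 0.692% and 0.439% against 0.626%, 1.24% and 0.863%. The clone fantom3_E130014H10 was at 0.633%, 0.936% and 0.983% in sham and 1.01%, 1.91% and 1.27% after ischemia/reperfusion, narrowly without overlap (log2 0.70, SE 0.27, adjusted p 0.163). Ischemia/reperfusion replicate 2 was the highest library there. The clone in Mog, a myelin protein, was at 6.59%, 7.49% and 5.05% against 7.58%, 11.3% and 4.69%, that in P2ry12 (microglia) had a log2 change of 0.12, and the 2 in Pecam1 (endothelium) had changes of 0.11 and 0.19, all with overlapping groups. Among 24 immediate early genes, only Fosl2 and Nr4a2 held clones, 4 in all, with changes above 0 and no unadjusted p under 0.05, although 13 of the 24 gene rows were higher at that p. The summed level of 8 astrocyte markers was 5484, 5474 and 5421 CPM in sham and 5225, 5026 and 4730 CPM after ischemia/reperfusion. That of 4 neutrophil markers was 6.56, 6.25 and 4.32 CPM against 8.52, 14.3 and 14.3 CPM. Both moved with the groups, and their part in the clone ratios was not tested. Of the 8 astrocyte markers, 2 had a log2 fold change above 0. The sum of 6 oligodendrocyte markers spread widely, from 4348 to 5423 CPM in sham and from 3706 to 9505 CPM after ischemia/reperfusion, where replicate 3 was highest. The microglia sums overlapped, at 176 to 188 CPM in sham and 186 to 229 CPM after ischemia/reperfusion. Of the 9 neuron markers, the sums overlapped between the groups, from 4677 to 4810 CPM in sham and from 4355 to 4993 CPM after ischemia/reperfusion.

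Other clone rows of the table give a level for comparison. The 999 clones that lay 10 kb or more from any gene row had a median of 0.242, 0.217 and 0.245 RPKM in sham and 0.262, 0.320 and 0.306 RPKM after ischemia/reperfusion, with a median log2 fold change of 0.19. These groups did not overlap, and the lowest ischemia/reperfusion value, in replicate 1, was close to sham. The 1768 clones that lay antisense to a gene only had medians of 1.06, 1.04 and 1.11 RPKM against 1.24, 1.13 and 1.23 RPKM and a median log2 fold change of 0.06. Whether a background common to such clones enters the values of the intron-like clones was not tested. The sources used here do not give the strand setting of the counting, so reads of an antisense transcript cannot be told apart from those of the clone.

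The authors' deposited table lists all 2623 clones. At a q-value under 0.05 the authors' deposited table gives as higher 380 of them (14.5%) and as lower 2 (0.0762%), where 14.7% of all its rows are higher and 9.77% lower. Of the host rows, 449 are higher (25.7%) and 441 lower (25.2%) in the authors' deposited table. The number of higher clones is thus near the background of that table, and the number of lower clones is below it. The hosts lie above that background in both directions and are divided almost evenly. They were chosen at a mean of at least 1 RPKM, and the part of this in their shares was not tested. In the edgeR fit of rows with a low-count filter 0 of the 2331 clones and 0 of the 1747 hosts tested were called.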

How the data were processed

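Per the labels' protocols, brain RNA without ribosomal RNA was sequenced in 3 sham and 3 ischemia/reperfusion libraries. The build was mm10, per the submitters' processing notes; the aligner, the counter, its annotation and its strand setting are not stated there or in the labels. The deposited counts are raw whole numbers per row, 45.4 to 49.7 (in units of 1e6) per library. The deposited RPKM values equal counts per kilobase of row length and 1e6 counts (100% of values, relative tolerance 0.001). The authors' comparison table holds a log2 fold change, p-values and q-values. Row length and position are used as deposited.

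The ratio is clone RPKM over host RPKM, in which library size cancels. Rows were tested with edgeR 4.0.16 (R 4.3.3; TMM, filterByExpr, robust quasi-likelihood F test, two-sided, Benjamini-Hochberg over 40170 rows). Ratios were tested likewise over 11843 pairs, with the log host count as offset and no library factor; the counting error of the host is not in that fit. A host called lower or higher is read from the first fit. Alternatives tried were DESeq2's size factors in edgeR (RLE), upper-quartile factors, no low-count filter, at least 1 CPM, DESeq2 1.42.0, limma 3.58.1 on log2 ratios with 0.5 or 2 added counts, centring, other limits for the members, a replicate block and leaving out each library. A second centring, members sharing no bases and members with at least 1 CPM were added after seeing the data. On simulated data with changes in rows of at least 20 counts per library on average, the row fit recovered 52% of rows changed 2-fold and 87% changed 4-fold (39494 rows), and 13.7% of its calls were unchanged rows. The ratio fit recovered 63% and 96% (11843 pairs), with 6.47% unchanged.

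The members, gene lists and tests were chosen with earlier results of these data known. Clones were named by rule: up to 8 higher and 8 lower with groups apart by smallest p, the 6 with the highest CPM, the 3 largest and 3 smallest ratios, the 3 hosts with the most clones, the 3 pairs on each side of the limit, and up to 3 clones per gene list by CPM; some clones that the rule names are not reported here. A count of 0 allows up to 3 counts, 0.0604 to 0.0660 CPM per library, counting error only. Same-numbered libraries did not deviate together (correlations −0.07, 0.03 and 0.11 over rows), so the numbers were not used as pairs.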

Additional observations from a re-analysis of the deposited data

How the results depend on the processing

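All 25 clones called by their ratio kept a log2 change above 0 under each alternative fit, but how many were called varied with the libraries and the tool. Leaving out each library gave 3 to 128 ratio calls: 128 without ischemia/reperfusion replicate 1 (24 of them among the 25), 10 without replicate 2, 4 without replicate 3, and 3, 10 and 6 without sham replicates 1, 2 and 3. limma called 0 with 0.5 added and 0 with 2 added. Centring on the median of all pairs gave 49 calls (44 higher, 5 lower; over all pairs 127 higher and 1835 lower), and a second centring, added after seeing the data, 56 (55 higher, 1 lower). A host limit of 50 kb gave 16. The other limits gave 19 to 28. With the replicate number as a block the ratio calls were 10, of which 9 were among the 25, and no clone or host row was called; the labels do not say that same-numbered libraries share a source, and correlations of their ratio deviations were −0.01, 0.04 and 0.02.

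Clone row calls were 3 without a filter and 18 with DESeq2, and 0 to 33 on leaving out each library. Host row calls were 1, Meg3, without a filter and 11 with DESeq2, and 0 to 33 on leaving out each library; the 33 in each case came without ischemia/reperfusion replicate 1. The cause was not tested. The log2 difference of the median ratio, 0.46, was 0.40 for clones with 100 or more counts, 0.36 at a ratio limit of 0.2, 0.38 with 1 clone a host, 0.31 for clones of at least 1 CPM (added after seeing the data) and 0.35 for summed RPKM, and 0.43 to 0.48 on leaving out each library. The groups stayed apart in each. No list gene of intron splicing or decay was called under any alternative run. Upper-quartile factors moved the median of all rows from 0.02 to 0.07. The median summed count of a clone was 172 over 6 libraries.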
